A study of Drosophila melanogaster with 120 samples.

Results

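A set of 120 transcripts of Drosophila melanogaster was high in the heads of flies 1 day old and lower in the heads of older flies, while its median level in the abdomen, pooled over populations, changed little. The set was chosen from the measured values. For each of the 16637 transcripts on the array and for each tissue, a difference D was taken as the median of the 48 arrays of days 5, 15, 30 and 50 minus the median of the 12 arrays of day 1. Transcripts with a head D of at most -1, which is at least a 2-fold fall, and an absolute abdomen D under 0.5 were the members. They made up 0.721% of all transcripts. The contrast of day 1 with the later days therefore defines the set, and its values are given below as a description without a test.

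The flies were unmated females, frozen at 5 ages and dissected into heads and abdomens, which gave 60 arrays of each tissue. All descended from wild-caught females of New Jersey and were kept at 25 °C. Control populations mated at 14 days of age. Selection populations, bred for longer reproductive lifespans, mated first at 28 and later at 40 days, and flies were taken after 35 generations. There were 3 control and 3 selection populations, set up in pairs, and each population, tissue and age had 2 biological replicates, so every combination of tissue, regime and age held 6 arrays. Values are log2 intensities per transcript, 1 unit being a 2-fold difference.

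A fly that has just left the pupal case is not yet a finished adult. Its cuticle tans and hardens and goes on being laid down, larval fat body cells that were carried through metamorphosis are broken down, and the nervous and sensory tissue of the head is still maturing. Changes in RNA over the first days of adult life are a known feature of this period.

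The array identifies transcripts by FlyBase transcript numbers (FBtr). None of the 120 members was tied to a gene by the RefSeq gene table used here, which tied 16 of the 16637 transcripts to 1 gene and 44 to any entry. The members are therefore described by number and by measured level, without gene names, functions or sequences. None of the tissue marker genes was among the named transcripts, so the labelled tissues were not checked against markers. In whole heads or abdomens, fewer cells of a type and less RNA per cell cannot be told apart.

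Several heads did not carry the profile of their labelled day, and these bear on every result below. Each array was scored from 200 rising and 200 falling transcripts that are not members, chosen on the populations of other numbers, with 0 for the median profile of the later days and 1 for that of day 1. In heads, 8 of the 12 day-1 arrays scored between 0.916 and 1.36, and 45 of the 48 later arrays between -0.096 and 0.187. Both day-1 heads of control population 3 scored like later days, at -0.047 and -0.025. Conversely, 3 later heads scored like day 1: control population 3 on day 30, replicate 1, at 0.919; selection population 3 on day 30, replicate 2, at 1.05; and control population 2 on day 50, replicate 1, at 1.23. The day-1 heads of control population 1 lay between, at 0.486 and 0.470. Its day-1 abdomens were intermediate too, both at 0.540. The other 10 day-1 abdomens scored 0.957 to 1.04, with those of control population 3 at 1.03 and 0.987. All 48 later abdomens scored -0.045 to 0.212. Control population 1 was thus shifted in both tissues, and control population 3 on day 1 only in heads. Below, the 8 and the 45 heads are called the typical day-1 heads and the typical later heads, and the 5 heads on the wrong side the opposite heads.

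The members followed these scores although none of them was used to make them. Their median level was 11.38 to 11.76 in the typical day-1 heads and 9.40 to 10.23 in the typical later heads. In the day-1 heads of control population 3 it was 9.59 and 9.77, within the later range. In the opposite heads of later days it was 11.18 in control population 3, 11.73 in selection population 3 and 11.36 in control population 2. Between 89 and 120 members lay nearer to the day-1 than to the later median in each typical day-1 head, and between 0 and 16 did so in each typical later head. The same count was 0 and 1 in the day-1 heads of control population 3, and it was 89, 119 and 98 in the opposite later heads.

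**Figure D1:**
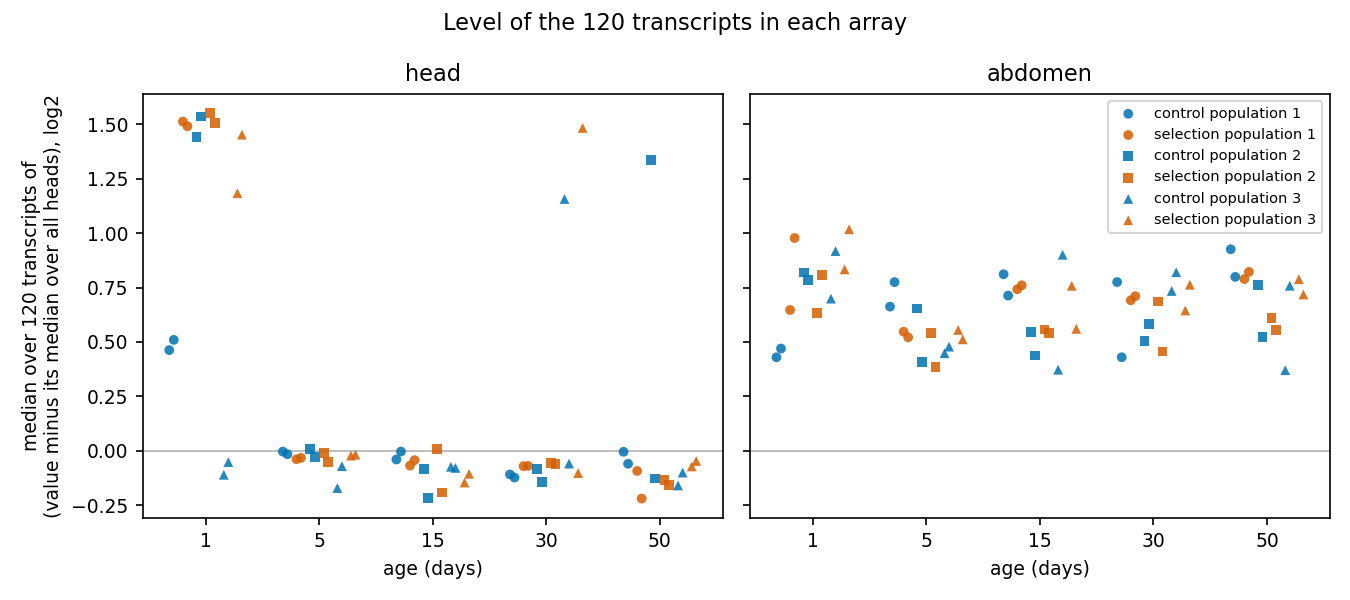
Median over the 120 transcripts of each array's value minus the transcript's median over all heads (log2), by age in days, for heads and abdomens; each point is 1 array, with color for regime and shape for population number. Day-1 heads are high except in control population 3 (9.59 and 9.77 as median level) and, in part, control population 1, 3 later heads are as high as day 1, and abdomens change little with age.

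Among transcripts that fell in the head, little change in the abdomen (absolute D under 0.5) was the less common pattern. Of the 603 transcripts with a head D of at most -1, 392 (65.0%) also had an abdomen D of at most -1, a further 72 (11.9%) had an abdomen D between -1 and -0.5, and 19 (3.15%) had an abdomen D of 0.5 or more. The remaining 120 (19.9%) are the members, whereas 60.0% of all transcripts had an absolute abdomen D under 0.5. Transcripts with the converse pattern, an abdomen D of at most -1 and an absolute head D under 0.5, numbered 1002.

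Most members fell by little more than the limit, and a few fell much further. The median head D was -1.31, with a range from -5.29 to -1.01, against a median of 0.01 over all transcripts. Head D was above -1.5 for 75 members, at most -2 for 19 and at most -3 for 8. The median abdomen D of the members was -0.07, from -0.50 to 0.47, against 0.02 over all transcripts.

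Members and non-members lay close together at the limits. Nearest inside the head limit were FBtr0076169, FBtr0078909 and FBtr0111137, all with a head D of -1.01. Nearest outside were FBtr0082428, FBtr0086328 and FBtr0079255, with -0.997, -0.996 and -0.996. At the lower abdomen limit FBtr0083253, FBtr0083105 and FBtr0290123 lay just inside with an abdomen D of -0.496, -0.495 and -0.487, and FBtr0072593, FBtr0080336 and FBtr0081147 just outside with -0.504, -0.504 and -0.511. At the upper limit, where the nearest values lay further apart, FBtr0080836 at 0.47, FBtr0085386 at 0.46 and FBtr0079615 at 0.45 were inside and FBtr0112650 at 0.56, FBtr0080677 at 0.57 and FBtr0083586 at 0.60 were outside.

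By group, the median level of the members in heads was 10.81 in controls and 11.69 in selection on day 1. The control value spans a range from 9.59 to 11.65 over its 6 arrays, and the selection value one from 11.38 to 11.76. On day 5 the group medians were 9.83 in controls and 9.93 in selection, and they stayed between 9.67 and 9.81 on days 15, 30 and 50. Most of the drop of the set as a whole was therefore present by day 5. In abdomens the group medians were 9.94 and 10.29 on day 1 and lay between 10.26 and 10.58 afterwards.

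The fall differed in size among populations, 2 of which carried the unusual day-1 heads. The median head D of the members, from the means of a population's own arrays, was -1.59 in selection population 1, -1.58 in selection population 2, -1.18 in selection population 3 and -1.46 in control population 2. It was -0.59 in control population 1 and 0.15 in control population 3. In control population 3 no member had a D of at most -1, whereas 114, 111, 78 and 111 had one in the populations named first, and 42 did in control population 1. A fall of any size was seen in 6 of 6 populations for 35 members, in 5 for 79 and in 4 for 6. Values of the typical day-1 heads and the typical later heads did not overlap for 70 of the 120 members, and with all 60 heads as labelled no member was free of overlap. In abdomens, from 92 (control population 1) to 105 (selection population 2) of the 120 members kept an absolute D under 0.5 within a single population.

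The same measure was read in replicates that the choice had not used. Applying the rule to biological replicate 1 alone chose 101 transcripts, 74 of them members. In replicate 2 all 101 had a head D below 0, with a median of -1.47 against 0.02 over all transcripts. Of the 101, 84 had a head D of at most -1, and 84 kept an absolute abdomen D under 0.5. With both replicates together, 60.0% of all transcripts had such an abdomen D. Over all transcripts 4.26% had a head D of at most -1 in replicate 2. Choosing on replicate 2 gave 162 transcripts, 109 of them members. In replicate 1 all 162 had a head D below 0, with a median of -0.99 against 0.0006 over all transcripts. Of the 162, 80 had a head D of at most -1, against 3.14% of all transcripts, and 140 kept an absolute abdomen D under 0.5. Both replicates come from the same populations, and the opposite day-1 heads are in both.

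The steepest fall belonged to FBtr0080281, with a head D of -5.29. It stood at 11.98 to 14.24 in the typical day-1 heads, with a median of 14.02, and at 8.15 to 10.61 in the typical later heads, with a median of 8.66. In abdomens it ran from 9.45 to 11.31 on day 1 (median 10.40) and from 9.28 to 11.58 later (median 10.52). The head thus began about 3.56 above the abdomen on the log2 scale and ended 1.85 below it, as the medians of all arrays show. Among the opposite heads it measured 8.49 and 8.13 in the day-1 heads of control population 3, and 12.90, 14.13 and 13.88 in the later ones.

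The next 3 members went from high to near the bottom of the scale in heads. The lowest value on any head array was 7.01 and the highest 15.76. FBtr0075376 (head D -4.02) was at 11.50 to 12.41 in the typical day-1 heads and at 7.77 to 8.90 in the typical later ones, with an abdomen mean of 7.86. FBtr0075434 (-3.93) was at 11.64 to 13.43 and then 7.83 to 9.66, with an abdomen mean of 8.69 and single abdomens up to 11.00. For FBtr0077137 (-3.77) the ranges were 10.72 to 11.90 and 7.46 to 7.89, with an abdomen mean of 7.89. The day-1 and later ranges of these 3 did not overlap, and the later ranges included their abdomen means.

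The other 6 of the 10 largest falls had the same shape. FBtr0073327, FBtr0086248 and FBtr0113146 had a head D of -3.25, -3.25 and -3.24, and FBtr0112441, FBtr0087025 and FBtr0290214 of -3.01, -2.88 and -2.81. The typical day-1 and later heads did not overlap for any of the 6. Their abdomen means lay between 7.78 for FBtr0113146 and 8.49 for FBtr0112441.

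**Figure D2:**
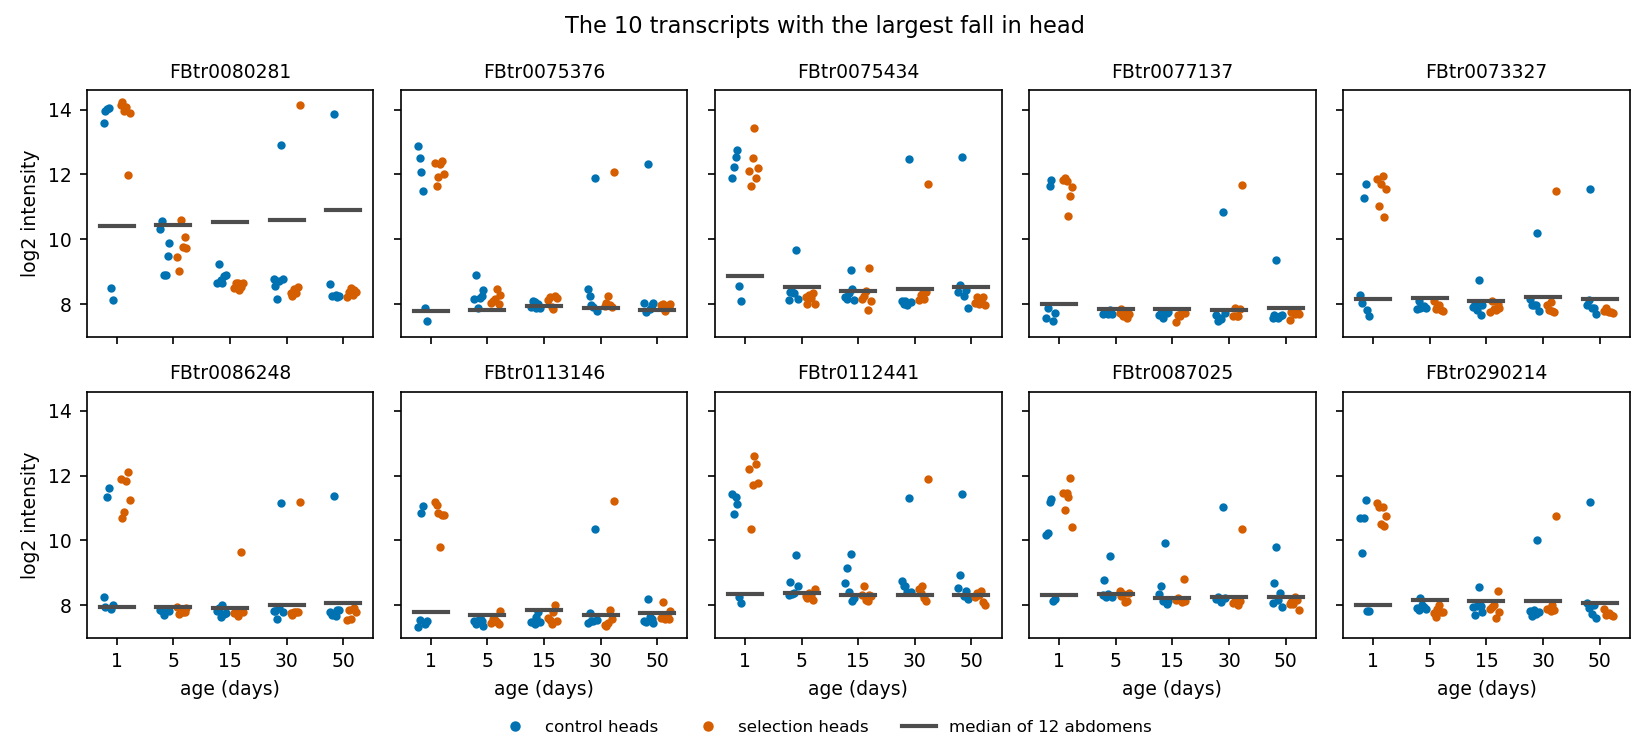
Log2 intensity of the 10 members with the largest head fall by age in days; each point is 1 head, colored by regime, and each bar is the median of 12 abdomens. FBtr0080281 falls from a median of 14.02 to 8.66 in typical heads, and low points among the day-1 control heads include both arrays of control population 3 for every transcript shown.

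Members differed in what the abdomen did while the head fell, and this was read by splitting them on their mean over all abdomens at the 25% lowest and 25% highest of all transcripts (8.34 and 12.27). The low class held 29 members, the middle class 55 and the high class 36. The low class held 24.2% of the members and the high class 30.0%, each against 25.0% of all transcripts. Of all transcripts with a head D of at most -1, 50 were in the low class, 458 in the middle and 95 in the high class.

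In the low class the head fell, on the median, to about the level of the abdomen. The median level in heads went from 10.69 on day 1 to 8.13 later, while the abdomen stayed at 8.12 in both periods. The class is by definition among the lowest 25% in abdomens, where the lowest value on any array was 7.03. A fall had little room to show there, so the small abdomen D of this class cannot be read as steady expression. All 29 were higher in head than abdomen on day 1, by a median of 2.62, and 15 were still higher later, by a median of 0.09 over the class. Over all transcripts of that abdominal level the median head minus abdomen difference was -0.10 on day 1 and -0.13 later. Members had to fall at least 2-fold in heads, and this class was low in abdomens. A higher day-1 head was thus largely fixed by the choice, and the comparison is a description. Later head levels lay among the lowest 25% of all transcripts in heads (below 8.22) for 15 of the 29. The share among all transcripts of that abdominal level was not counted. Others stayed well above the abdomen: FBtr0089971 was at 11.61, FBtr0073275 at 11.51 and FBtr0082405 at 11.25 in later heads, 3.35, 3.38 and 3.25 above it. The tissue difference of later days depends on scaling. After quantile normalization over all arrays 23 were higher in the head, with a median of 0.22, against 0.03 over all transcripts of that level. After median centring 29 were, with a median of 0.53, against 0.30.

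The high class was at a similar level in both tissues on day 1, and its head level then fell below that of the abdomen without becoming scarce. Heads went from a median of 13.14 to 11.76, and abdomens from 13.23 to 13.19. On day 1 the tissues differed by a median of -0.15 (head minus abdomen), and 29 of 36 lay within 0.5 of each other, against 33.8% of all transcripts of that abdominal level. Later the difference was -1.37, and 26 members were at least 2-fold lower in the head, against 41.6% of all transcripts of that level. With quantile normalization the medians were 0.28 and -0.88, with 27 within 0.5 on day 1, against 61.6% of all transcripts of that level, and 14 at least 2-fold lower later, against 22.8%. With median centring they were 0.27 and -0.94, with 27 and 17 members, against 57.3% and 26.4% of all. The direction of the day-1 difference thus depends on the scaling, and the later one does not. The choice required a head fall of at least 2-fold with little abdominal change, so a drop in this difference was set in advance. The counts on day 1 and later are not independent of the choice and are a description.

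Single transcripts of the high class show the pattern. FBtr0070848 went from 13.44 to 11.43 in heads and from 13.20 to 13.43 in abdomens. FBtr0076472 went from 13.65 to 11.72 in heads and from 13.92 to 13.56 in abdomens. FBtr0084628 went from 12.36 to 10.83 in heads and stayed at 12.83 and 12.86 in abdomens. An exception is FBtr0083164, which was far higher in abdomens, at 14.65 and then 14.22, than in heads, at 9.82 and then 8.27. The middle class lay between: its head median fell from 10.96 to 9.11, its abdomen moved from 9.70 to 9.95, and the number of its 55 members higher in the head went from 41 to 10.

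Not every member became scarce in the head. The later head level was highest for FBtr0084452 at 13.67, FBtr0079027 at 13.52, FBtr0079948 at 12.95 and FBtr0077844 at 12.73. It was lowest for FBtr0113146 at 7.54, FBtr0073328 at 7.58, FBtr0086989 at 7.68 and FBtr0077137 at 7.70. In all, 27 of the 120 ended among the lowest 25% of head levels.

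**Figure D3:**
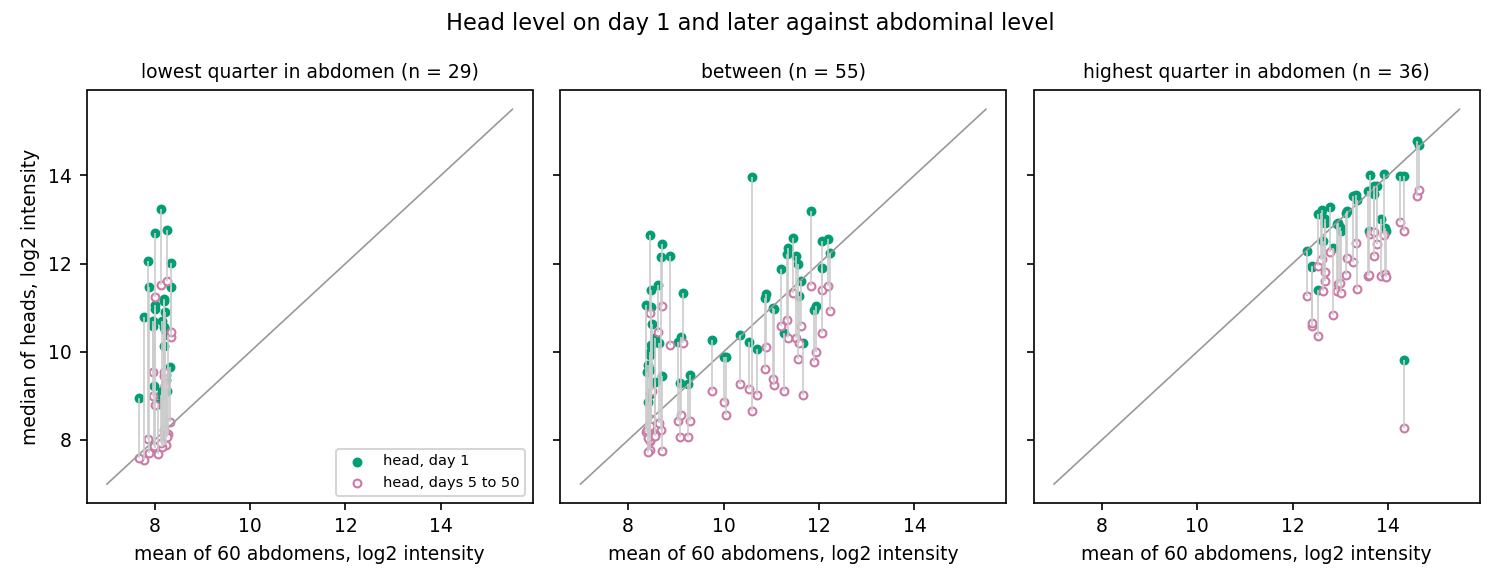
Median head level on day 1 (filled) and on days 5 to 50 (open) against the mean of 60 abdomens (log2 intensities), in 3 panels by abdominal class; each joined pair of points is 1 member and the diagonal marks equal levels. The low class drops from above the abdomen to about its level (median difference 2.62, then 0.09), and the high class from about equal to below it (median -0.15, then -1.37).

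Averaged over day 1 and the later days with equal weight, 47 members differed between head and abdomen by at least 2-fold (limma, Benjamini-Hochberg adjusted p under 0.05, population as a block). The share of all transcripts called was 28.6%. Of the members, 27 were higher in the head, where 8.12% of all transcripts were, and 20 were lower, where 20.5% of all were. The split depends on scaling: quantile normalization gave 29 higher and 5 lower, median centring 36 and 8. This average gives day 1 as much weight as all later days, and the members were chosen for high day-1 heads, so it is not independent of the choice and its counts are a description. Weighting the 5 days equally, which gives day 1 less weight, gave 18 higher and 36 lower, where 33.6% of all transcripts were called, 10.4% higher and 23.2% lower. The median of all transcripts was -0.26 as deposited, -0.02 after quantile normalization and 0.17 after centring.

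The members with the smallest p each way were mostly far apart between tissues. FBtr0073275 was higher in the head by 4.14, with 12.26 ± 0.353 in heads and 8.13 ± 0.0759 in abdomens (SD, n = 6 populations). FBtr0089971 and FBtr0082405 were higher by 3.81 and 3.80. FBtr0083164 had a head minus abdomen difference of -5.30, with 9.13 ± 0.528 against 14.44 ± 0.0458 (SD, n = 6). FBtr0086029 differed by -1.57, and FBtr0080836 by slightly less. Each of these 6 differences had the same direction in 6 of 6 populations.

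The day-1 heads of control population 1, which scored between the 2 profiles, held some members at the later level and others at the day-1 level. For each member its position was set to 0 at the median of the typical later heads and 1 at that of the typical day-1 heads. The 120 positions ranged from -0.547 to 3.47 with a median of 0.359: 43 were under 0.2, 45 between 0.2 and 0.8, and 32 above 0.8. Of the members, 8 lay above all typical day-1 heads, 45 within their range and 67 below it, of which 59 were within the range of the typical later heads. The members were thus not uniformly intermediate in these heads.

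Both replicates of that population ranked the members alike. The positions in replicate 1 and replicate 2 correlated across the 120 transcripts with a Pearson r of 0.894 and a Spearman rho of 0.849, and 108 lay on the same side of 0.5 in both. Transcripts are not independent replicates, and both arrays are of the same population and age. Positions were higher in the low abdominal class (median 0.575) than in the middle (0.394) and the high class (0.217).

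The members with the steepest falls behaved differently there. FBtr0080281 was at about the typical day-1 level, with 13.59 and 13.95 and a position of 0.952, as were FBtr0075376 (12.86 and 12.50, position 1.16) and FBtr0075434 (11.90 and 12.24, position 0.933). FBtr0077137 was at about the typical later level, with 7.58 and 7.87 and a position of 0.00833, and so was FBtr0113146 (7.34 and 7.54, position -0.0277). Why members differed in these heads was not tested. FBtr0073327 and FBtr0086248 had positions of 0.0747 and 0.0804. The lowest positions belonged to FBtr0074969 at -0.547, FBtr0073248 at -0.494 and FBtr0112961 at -0.115.

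A few members were higher in control population 1 than in any typical day-1 head. FBtr0074933 measured 11.88 and 11.58 there, against 8.09 to 9.29 in the 8 typical day-1 heads, which is a position of 3.47. FBtr0075433 measured 11.35 and 12.07 against 9.17 to 10.45, and FBtr0083164 measured 11.92 and 11.36 against 9.13 to 10.51. For these the level in the typical day-1 heads is not the highest level seen in young heads.

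**Figure D4:**
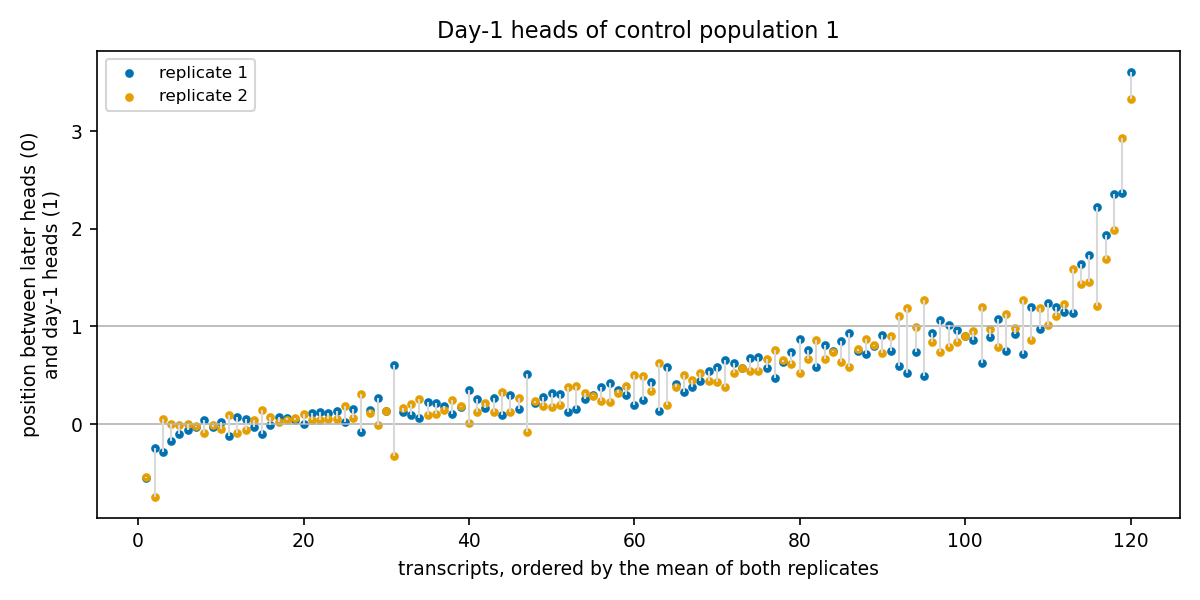
Position of each of the 120 members in the 2 day-1 heads of control population 1, 0 being the median of the typical later heads and 1 that of the typical day-1 heads; transcripts are ordered by the mean of both replicates. Mean positions run from -0.547 to 3.47, with 43 members under 0.2 and 32 above 0.8, and the replicates lie close together (Pearson r 0.894).

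The opposite head of control population 2 on day 50 was also not uniform. It held FBtr0075376 at 12.34 and FBtr0076472 at 14.05, both within the range of the typical day-1 heads. It held FBtr0077137 at 9.37 and FBtr0113146 at 8.21, between the ranges of the typical day-1 and later heads. Selection population 3 on day 30 had 11.66 and 11.21 for that pair, within the day-1 range or just above it.

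Most members tracked the median of the set over the 30 averages of population and day in heads, a likeness that the choice largely fixes. The correlation had a median of 0.902 and exceeded 0.9 for 61 members. The most alike were FBtr0073327 (0.976), FBtr0084452 (0.972), FBtr0290214 (0.968) and FBtr0077137 (0.968). The least alike were FBtr0072393 (0.369), FBtr0074933 (0.502), FBtr0075371 (0.581) and FBtr0113117 (0.620). Over all 120 arrays 21 pairs among 30 members exceeded 0.95, the highest being FBtr0077137 with FBtr0113146 at 0.979, the pair that was low together in control population 1.

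The choice pooled days 5 to 50 and so did not compare them with each other, but it is not neutral on later changes. A transcript that went on falling after day 5 reached the head limit more easily, and a transcript that rose again less easily. The counts of members that fell or rose, also those for head minus abdomen below, are therefore not independent of the choice. Between day 5 and day 50 in heads, 1 member fell in limma's test over 30 averages (Benjamini-Hochberg adjusted p under 0.05) and none rose. Over all transcripts 1.76% changed, 0.691% falling and 1.07% rising. The member was FBtr0113117, at 11.93 ± 0.192 on day 5 and 10.59 ± 0.630 on day 50 (SD, n = 6 populations), a change of -1.34 (SE 0.277, limma adjusted p = 0.0109), lower in 6 of 6 populations. Without control population 1, selection population 2 or selection population 3 the change was -1.29, -1.33 and -1.24 and the adjusted p 0.0510, 0.101 and 0.0621. Its level in the typical day-1 heads (11.19 to 12.69) overlapped with that of day 5 (11.45 to 12.25), so its head D of -1.40 draws on the fall after day 5. FBtr0100255 (-0.88, adjusted p = 0.0869) and FBtr0073653 (-1.11, adjusted p = 0.190) came next without passing, and the rises with the smallest p were 1.21 for FBtr0074969, 0.44 for FBtr0078805 and 0.71 for FBtr0273388, none past the threshold.

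Without the 5 opposite heads, 10 members fell between day 5 and day 50 and none rose (limma, Benjamini-Hochberg), where 5.02% of all transcripts changed, 2.42% falling and 2.6% rising. In this fit control population 3 has no day-1 head, and 3 population averages of days 30 and 50 rest on 1 array. The day-50 head left out, of control population 2, was high in the members (median level 11.36), and no day-5 head was left out. Leaving it out itself favours a fall by day 50, so the calls and adjusted p values are not independent of that step. FBtr0113117 fell by 1.44 (adjusted p = 1.59e-06) and FBtr0073653 by 1.36 (adjusted p = 5.02e-05). FBtr0080281, the steepest of all members after day 1, fell by a further 1.38 (adjusted p = 0.000116), from 9.72 ± 0.581 to 8.34 ± 0.0759 (n = 6), and FBtr0100255 fell by 1.02 (adjusted p = 0.000396). The other 6 were FBtr0070888, FBtr0076559, FBtr0073275, FBtr0084549, FBtr0081689 and FBtr0113483, with changes of -0.65, -0.66, -0.76, -0.61, -0.50 and -0.55. All 10 were lower in 6 of 6 populations except FBtr0113483, lower in 5 of 6. Over the whole set 76 of 120 members were lower on day 50 than on day 5, against 51.2% of all transcripts, with a median of -0.07. With all arrays the direction was the reverse, with 45 members lower and 75 higher and a median of 0.07.

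The fall after day 5 was early in 3 of them. Between day 5 and day 15, with the opposite heads left out, FBtr0113117 fell by 0.95 (limma adjusted p = 0.00345), FBtr0100255 by 0.84 (adjusted p = 0.0224) and FBtr0080281 by 1.02 (adjusted p = 0.0248). These were 3 of 120 members, where 0.258% of all transcripts changed, 0.198% falling and 0.0601% rising. With all arrays no member passed, 5 did at an unadjusted p under 0.05 and 0.00601% of all transcripts passed. Without the opposite heads the day medians of FBtr0080281 on days 5, 15, 30 and 50 were 9.75, 8.66, 8.50 and 8.28, and those of FBtr0113117 were 11.94, 11.05, 10.61 and 10.44.

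Most of the 10 members that fell after day 5 were at a high position in the day-1 heads of control population 1. Their positions there ranged from 0.483 to 1.19, with a median of 0.905 against 0.359 for all members, and 7 of the 10 were above 0.8. On day 5 their positions were 0.130 to 0.672, and 9 of the 11 members with a day-5 position over 0.2 were among them. Both positions take their 0 from the typical later heads, which the test also used, and the day-5 position shares its day-5 arrays with it. A transcript that goes on falling has a lower 0, which moves a position under 1 toward 1. Neither position is therefore separate evidence. Over all 120 members the position in control population 1 and the day-5 position correlated with a Pearson r of 0.268 and a Spearman rho of 0.502, a description across transcripts that share arrays. Of the 10, 4 were in the low and 6 in the middle abdominal class.

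**Figure D5:**
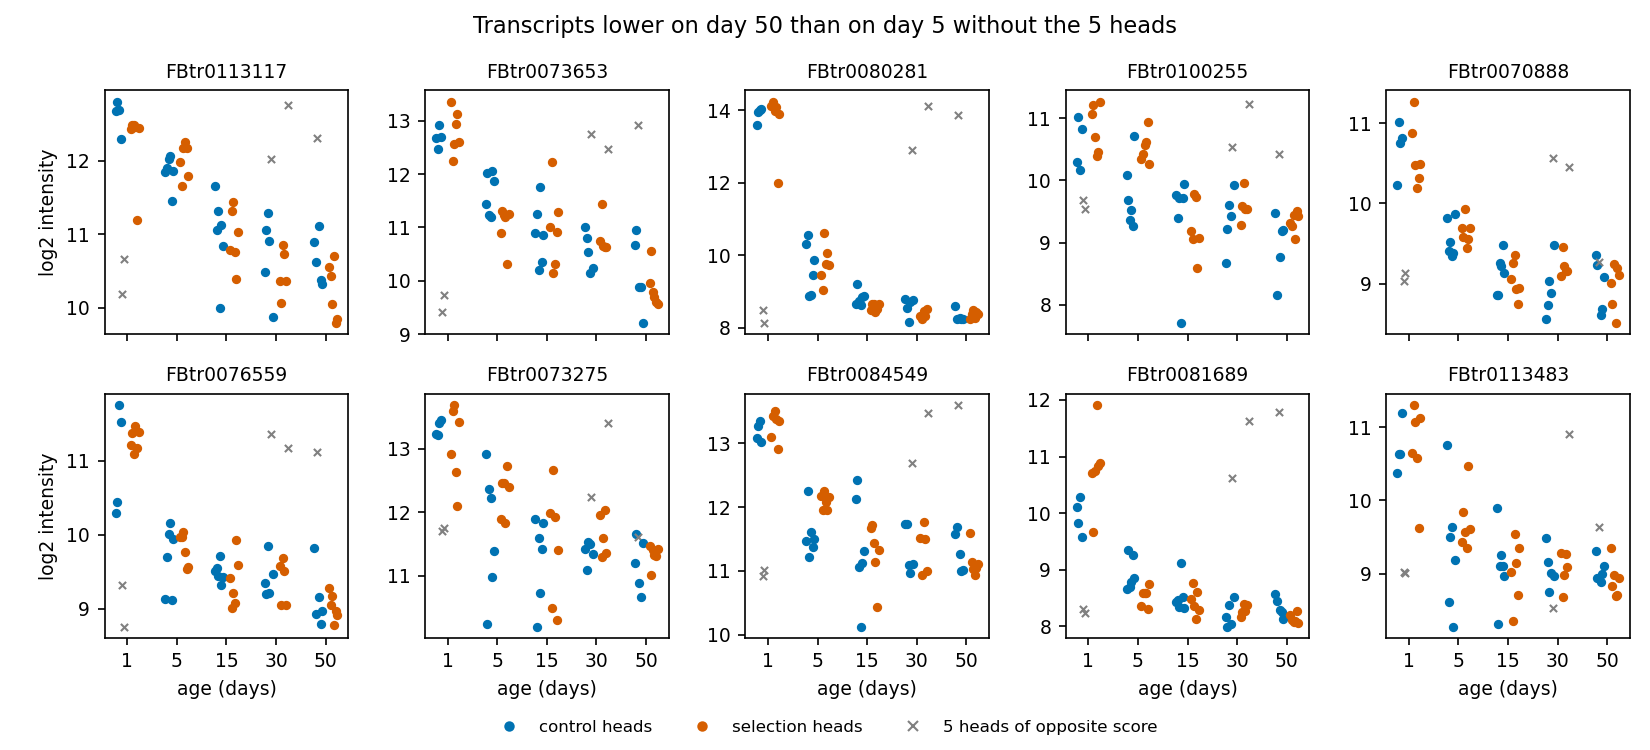
Head level (log2) of members that fell between day 5 and day 50 when the 5 opposite heads are left out, by age in days; each point is 1 head, colored by regime, with crosses for the opposite heads. Without the crosses FBtr0080281 goes from a median of 9.75 on day 5 to 8.28 on day 50, and FBtr0113117 from 11.94 to 10.44.

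In the abdomen 1 member changed between day 5 and day 50, and it rose. FBtr0080734 went from 9.70 ± 0.364 to 10.50 ± 0.370 (SD, n = 6 populations), a rise of 0.80 (SE 0.165, limma adjusted p = 0.0159) in 6 of 6 populations. Of all transcripts 0.914% changed, and 0.451% rose. The call was lost when any population other than selection population 2 was left out, with a rise of 0.64 to 0.82 and an adjusted p of 0.0542 to 0.244. The next by p were FBtr0074823 (0.35) and FBtr0087610 (0.31) upward and FBtr0072540 (-0.14), FBtr0079948 (-0.13) and FBtr0071988 (-0.16) downward, none of them past the threshold. In heads it had fallen after day 1, with a head D of -1.30. The difference between tissues in ageing itself was tested on head minus abdomen: 1 member, FBtr0113117, passed, at -1.37 (SE 0.283, limma adjusted p = 0.0182), and 0.98% of all transcripts passed, 0.475% lower and 0.505% higher. It did not pass without control population 1, selection population 1, selection population 2 or selection population 3, with values of -1.26 to -1.47. Without the opposite heads 8 members passed, each with the lower change in the head, where 2.59% of all transcripts passed, 1.35% lower and 1.24% higher. They were FBtr0113117, FBtr0100255, FBtr0080281, FBtr0073653, FBtr0084549, FBtr0070888, FBtr0083237 and FBtr0080734, and 6 of the 8 are among the 10 members that fell in the head. Here too, leaving out the high day-50 head of control population 2 favours a lower change in the head.

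The regimes did not differ detectably in the level of the members. Over days 5 to 50, with 3 selection against 3 control populations, no member passed in heads or abdomens, and 0% of all transcripts did (limma, Benjamini-Hochberg). In heads 24 members had an unadjusted p under 0.05, against 21.2% of all transcripts, and the smallest adjusted p of a member was 0.143. The largest selection minus control differences among the 6 with the smallest p were -0.66 for FBtr0075371 (10.01 ± 0.270 against 10.66 ± 0.215, SD, n = 3) and 0.42 for FBtr0081843. FBtr0085769 and FBtr0111137 differed by 0.35 and 0.36, and FBtr0077844 and FBtr0112441 by -0.30 and -0.38. In abdomens no member had an unadjusted p under 0.05, against 1.14% of all transcripts, and the largest difference among the 6 with the smallest p was -0.18 for FBtr0074823.

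The drop after day 1 was not shown to differ between regimes, and its median difference moved with the control populations whose day-1 heads stand apart. Later days minus day 1 was lower in selection than control for 115 of 120 members, against 49.9% of all transcripts. The median difference was -0.74, against 0.0007 over all transcripts. Members were chosen for high day-1 heads, and those of control populations 1 and 3 were intermediate or low, so the choice itself favours this direction. No member passed limma's test, and 0% of all transcripts did after adjustment. An unadjusted p under 0.05 was found for 21 members, against 9.93% of all transcripts. Leaving out the 5 opposite heads moved the median to -0.36, where again no member passed, and leaving out control populations 1 and 3 moved it to 0.00015. The last alternative was chosen after seeing the data and sets 3 populations against 1, so its calls are not read. With all arrays the smallest p belonged to FBtr0073302, whose change was -2.12 ± 0.355 in selection and -0.32 ± 0.715 in control (SD, n = 3, limma adjusted p = 0.491), and to FBtr0290123 and FBtr0075060, with differences of -2.24 and -1.41. In the other direction FBtr0074933 and FBtr0083164, which lay above all typical day-1 heads in control population 1, differed by 0.66 and 0.32.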

How the data were processed

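The deposited values are log2 intensities, 1 per transcript, from single-dye (Cy3) NimbleGen arrays, which the authors made with RMA, per the submitters' processing notes; no RMA version is given in the sources used here, and neither is a genome build or annotation. All 16637 transcripts were used without a filter. The array taken as replicate 1 of control population 3 (day-15 head) has replicate 3 in its title. Precision is limited by the number of arrays. Median correlation between biological replicates was 0.982 in heads and 0.987 in abdomens.

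Replicates were averaged, because selection acted on populations, and limma 3.58.1 in R 4.3.3 (intensity trend, two-sided, Benjamini-Hochberg over all transcripts, adjusted p of 0.05) was used for each test. Regime effects compared 3 against 3 populations over days 5 to 50. Age effects came from a model with terms for population, for day and for the interaction of regime with day; the tissue fit had population as a block. The labels say that selection and control populations were set up in pairs. Deviations of same-numbered populations correlated by 0.36, 0.17 and 0.52 in heads and 0.014, 0.26 and 0.53 in abdomens. Those of differently numbered populations correlated by -0.39 to 0.083 in heads and -0.56 to 0.28 in abdomens. The main regime fits took the populations as independent. The members and lists were chosen with earlier results of these data known. Named are the 10 largest falls, the 4 largest in each abdominal class, neighbours of each limit, the 3 smallest p each way per test, the 4 most and least alike and the 4 highest and lowest later head levels; others are named where a result turns on them, chosen after their values were seen. Gene lists were not used, since none of their genes was named. The fits were also run on simulated data with normal noise. No simulated array carried the profile of another day, so the simulation does not cover the effect of the opposite heads.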

Additional observations from a re-analysis of the deposited data

Results flagged for a closer look

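Of 22 groups of 6 values examined for one far from the rest, 20 of arrays and 2 of populations, 6 held one, all among the arrays, measured as the median shift of the members from their head medians; chance gives such a flag in about 1 group in 20. Heads carried 5 of the 6: control population 3, day 30, replicate 1 (1.16), selection population 3, day 30, replicate 2 (1.48) and control population 2, day 50, replicate 1 (1.34) were far above their groups and are the 3 later heads with a day-1 profile. Control population 2, day 15, replicate 2 (-0.22) and selection population 3, day 1, replicate 1 (1.18) lay below their groups. The abdomen was selection population 2, day 5, replicate 2 (0.38), also below its group. The causes were not tested. FBtr0113117 differed between tissues in its change from day 5 to day 50, by -1.37 for head minus abdomen, in limma's test of that difference.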

How the results depend on the processing

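The set changes with its definition. Means in place of medians gave 72 transcripts (65 shared), a head limit of -0.8 gave 208, a head limit of -1.5 gave 45, and an abdomen limit of 0.25 gave 76. Quantile normalization gave 140 (104 shared), centring 121 (110 shared), and leaving out the 5 opposite heads 175 (all 120 shared). Leaving out 1 population at a time gave 91 to 169.

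The later changes rest on few arrays. Members that changed with age in heads numbered 1 as reported, 0 among the 58 members with a mean above the median of all transcripts, 0 in biological replicate 1 alone, 2 in replicate 2 alone and 10 without the opposite heads. FBtr0113117 is not among these 58, so the filter removed it before the fit. Leaving out 1 population gave 0 to 1, with 0 without control population 1, selection population 2 or selection population 3. In abdomens the count of 1 became 0 with the same filter and in either replicate alone, and 0 to 1 when a population was left out, 1 only without selection population 2. The filter removed FBtr0080734 as well. The rise of FBtr0080734 stayed between 0.64 and 0.82 where its call was lost. For head minus abdomen the count of 1 became 0 with the filter, which removed FBtr0113117, and 0 in either replicate. It was 8 without the opposite heads and 0 to 2 by population, 2 without control population 2. There FBtr0113117 stayed between -1.26 and -1.47 where its call was lost. Between days 5 and 15, 0 became 3 without the opposite heads. The change of FBtr0113117 in heads stayed between -1.24 and -1.33 where its call was lost. The tissue count fell from 47, with 27 higher and 20 lower in the head, to 19, all lower, among the 58 members above the median. FBtr0089971, FBtr0073275 and FBtr0082405, which were higher in the head, are not among the 58. Fewer members and arrays enter these fits, and the causes were not tested otherwise. The population number as a replicate block changed no regime call, with 0 members in heads and abdomens; fits with no replicate block gave 1, 1 and 47 for ageing in heads, ageing in abdomens and tissue. Without the abdomen of control population 2, day 15, replicate 2, chosen after seeing the data, the rule gave 122 transcripts and the tissue count was 48.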

Other observations

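One abdomen held unusual values of the members. In control population 2, day 15, replicate 2, 26 members lay at least 1 above and 31 at least 1 below their abdomen medians, and for 31 of the 120 it was the highest of the 60 abdomens. FBtr0112441 measured 11.28 there, against a median of 8.34 in later abdomens. No other abdomen had more than 5 members that far above. The correlation of the array with its replicate was 0.859 over all transcripts.

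Some members carry FlyBase numbers next to each other, 26 of them having another member within 10 numbers, in 23 pairs. Their correlation over the 120 arrays ran from 0.0584 for FBtr0080478 and FBtr0080481 to 0.961 for FBtr0080066 and FBtr0080067, with a median of 0.810. FBtr0075432, FBtr0075433 and FBtr0075434 had a head D of -1.69, -1.27 and -3.93 and positions in control population 1 of 1.59, 2.65 and 0.933. FBtr0075366, FBtr0075368, FBtr0075371 and FBtr0075376 had a head D of -1.59, -1.09, -1.06 and -4.02 and positions of 1.13, 0.940, 1.72 and 1.16. All 7 were thus at or near their day-1 level, or above it, in those heads. FBtr0080066 and FBtr0080067, with positions of -0.0248 and 0.0496, were at the later level there. Other neighbours differed: FBtr0073327 and FBtr0073328 had positions of 0.0747 and 1.36. Transcripts of the same gene may share probes, and which genes these are is not known here.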
